A study of Solanum lycopersicum with 18 samples.

Results

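The fruit transcriptome of the tomato rin mutant was compared with that of the wild type at 45 DAP, the age that the labels give as the pink stage. The comparison holds 6 of the 18 libraries of the series, 3 per genotype, and all genes with at least 1 RPKM (read counts divided by the length of the gene model and by library size) in 3 or more of those 6 libraries, which were 17379 of 35802. The wild type was the cultivar Ailsa Craig, and the rin mutant was LA3754 in the Ailsa Craig background. Fruits of both genotypes at 35 DAP, the green stage, with 3 libraries each, served as the reference before ripening. The remaining 6 libraries came from TF18, a transgenic line with suppressed FUL1 and FUL2. On the deposited scale they entered only the estimate of the spread. The alternative scalings below were computed over all 18 libraries, those of TF18 included. Plants of all groups grew in one glasshouse regime, and RNA was taken from sliced fruits. The labels do not say whether libraries of a group came from separate plants or how many fruits were pooled, and the p-values therefore cover the variation among these libraries alone, which may be technical.

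RIN is a MADS-box transcription factor of tomato fruit. As background, fruits of plants homozygous for rin stay green to yellow and firm, and lack the burst of ethylene that accompanies normal ripening. Ripening of a climacteric fruit such as tomato involves ethylene synthesis, loss of chlorophyll, accumulation of carotenoids and softening of the cell wall. The table gives genes by Solyc identifier without names, and 0 of the 35802 identifiers matched the gene table at hand. Functions are therefore not assigned to genes here, and no values are reported for the RIN locus itself. The genotype labels are given without a check from the targeted gene. The genes are described by level, by direction and by their state before ripening.

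The libraries compared held 5740900 to 10452311 reads in the wild type and 11593940 to 15862788 in rin. At the median coding length, 1 read was worth 0.0659 to 0.182 RPKM in these 6 libraries. Wild-type replicate 2, the shallowest, stood apart from its group. In it 3632 genes (20.9% of those tested) lay at least 2-fold from the mean of the other 2 wild-type libraries on the log2 scale. The same count was 1543 for wild-type replicate 1 and 1630 for replicate 3, and it ran from 1232 to 2139 in the rin libraries. In none of the 6 replicate pairs did the reads agree within sampling noise, as those of 1 library deposited again would (chi-square per gene between 42.7 and 154). This does not show that the libraries came from separate plants.

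At 45 DAP, genes lower in rin were fewer than genes higher in rin, but more of them passed 32-fold. By limma, 696 genes were lower in rin (4% of those tested) and 5110 were higher (29.4%), where a call needs a Benjamini-Hochberg adjusted p under 0.05 and a difference of at least 2-fold. Differences of at least 32-fold were reached by 38 of the lower genes and by 19 of the higher genes. At 8-fold the counts were 130 lower and 315 higher. All of these differences are on the log2(RPKM + 1) scale, which understates the change of genes with low values.

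The split between higher and lower calls depended on how the libraries were scaled. The median log2 difference of all 17379 genes was 0.54 on the deposited scale, and single differences are to be read against that shift. With TMM-type scaling, which sets the bulk of genes level, the median was 0.09, and 1505 genes were lower (8.66%) and 3061 higher (17.6%). With quantile normalization the median was -0.03, and 1472 genes were lower and 1714 higher. Of all calls on the deposited scale 11.99% were lower in rin, and this share was 33.0% after TMM-type scaling and 46.2% after quantile normalization. With TMM-type scaling, 54 lower and 12 higher genes passed 32-fold. At 8-fold the order turned with the scaling, with 203 lower and 194 higher genes after TMM-type scaling.

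**Figure D1:**
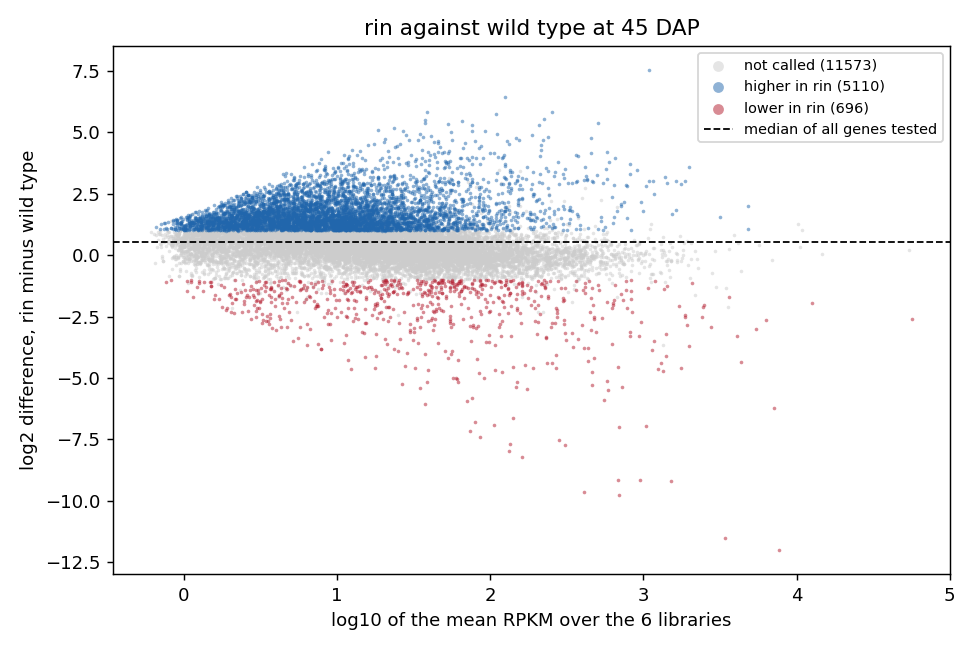
Each point is 1 of the 17379 genes tested, with the log10 of its mean RPKM over the 6 libraries on the x axis and the log2 difference of rin minus wild type at 45 DAP on the y axis. Colours mark the 696 genes called lower and the 5110 called higher, and the dashed line is the median of all genes, at 0.54.

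The genes of largest difference show the pattern library by library. They were picked among called genes whose groups do not overlap at 45 DAP, so that trait is no result. Solyc10g080210, with a coding length of 1374 bases, had 7312, 11351 and 27757 RPKM in wild-type replicates 1, 2 and 3 at 45 DAP. In the rin libraries of that age it had 4.36, 1.63 and 1.36 RPKM. These rin values lay near the levels before ripening. At 35 DAP those were 2.33 RPKM ± 0.57 (SD, n = 3) in rin and 3.42 RPKM ± 0.80 (SD, n = 3) for wild-type fruits. The log2 difference at 45 DAP was -12.00 (SE 0.39, limma adjusted p = 1.44e-11), from 143 reads over the rin libraries and 495401 over the wild-type libraries.

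Solyc08g066240, with a coding length of 1335 bases, had 6988, 5834 and 7777 RPKM in the wild-type libraries of 45 DAP. In rin it had 0.425, 1.49 and 2.67 RPKM. Wild type and rin at 35 DAP had 1.32 RPKM ± 0.36 (SD, n = 3) and 0.913 RPKM ± 0.11 (SD, n = 3). The log2 difference at 45 DAP was -11.50 (SE 0.26, limma adjusted p = 1.28e-13).

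The largest rise was that of Solyc05g051850, with a coding length of 1533 bases. It had 8.61, 14.4 and 8.43 RPKM in the wild type at 45 DAP. In rin it had 1365, 2254 and 2874 RPKM. All rin libraries of 45 DAP lay above all rin libraries of 35 DAP, which had 301 to 551 RPKM, while the wild-type libraries of 35 DAP had 140 to 212 RPKM. The log2 difference at 45 DAP was 7.53 (SE 0.36, limma adjusted p = 1.67e-09).

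Solyc03g123830, with a coding length of 1884 bases, had 0.813, 2.03 and 2.83 RPKM in the wild type at 45 DAP. In rin it had 313, 170 and 261 RPKM. The rin libraries of the 2 ages overlapped, with 139 to 316 RPKM at 35 DAP, and the wild type had 142 to 193 RPKM at that age. The log2 difference at 45 DAP was 6.45 (SE 0.37, limma adjusted p = 1.24e-08). Of these 4 genes, Solyc05g051850 was the only one for which all 3 rin libraries of 45 DAP lay on one side of all 35 DAP libraries of both genotypes.

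**Figure D2:**
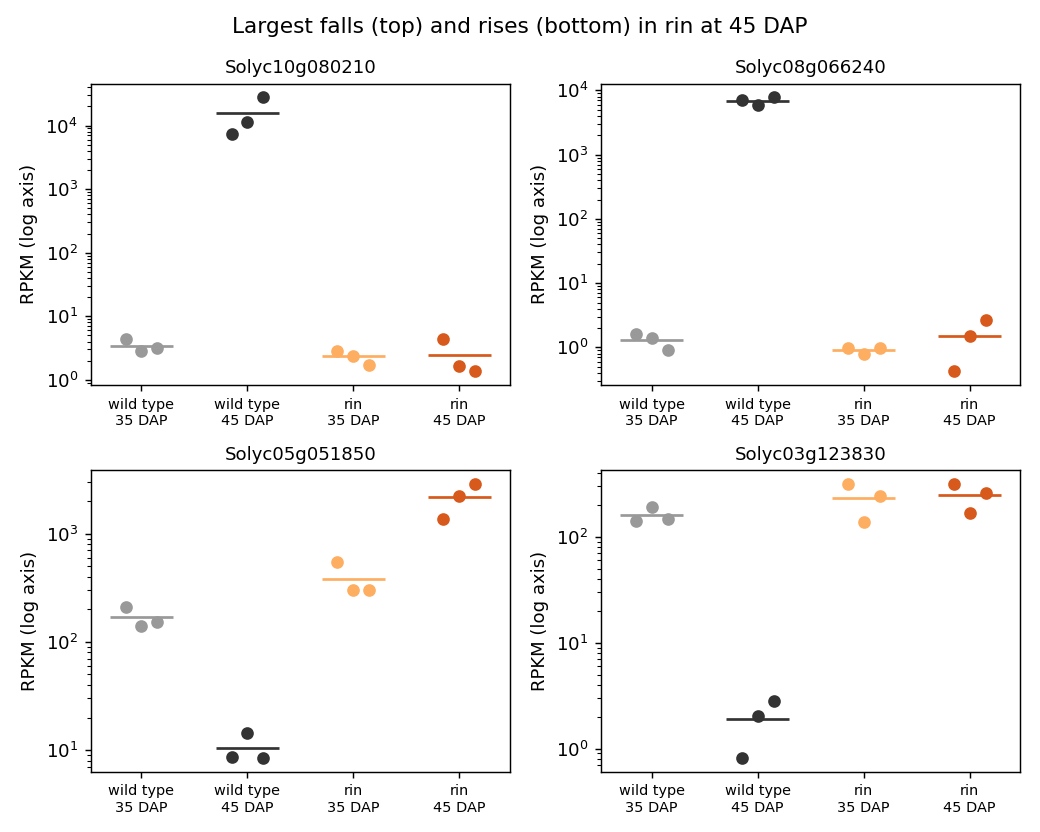
RPKM on log axes for the 2 genes of largest fall (top) and the 2 of largest rise (bottom) in rin at 45 DAP, with each point a library and each bar the mean of 3 libraries. In Solyc10g080210 and Solyc08g066240 the wild type at 45 DAP stands alone at the top. In Solyc05g051850 and Solyc03g123830 it stands alone at the bottom.

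The direction of the difference went with the level of the gene in the compared libraries. Genes were classed by their mean RPKM over the 6 libraries. The same libraries gave the difference, so a gene high in 1 genotype alone can enter a high class through it. In the wild type at 35 DAP, the genes called lower had a median of 10.3 RPKM. The genes called higher had 14.2 RPKM there, and all genes tested had 16.8 RPKM. Among the 6907 genes under 10 RPKM, 40.2% were higher in rin and 2.50% were lower. Among the 130 genes at 1000 RPKM or more, 13.1% were higher and 26.2% were lower, which is 17 and 34 genes. The classes between followed the same order for lower calls, with 3.72% of 8470 genes from 10 to 100 RPKM and 9.29% of 1872 genes from 100 to 1000 RPKM. With TMM-type scaling lower calls ran from 4.52% in the lowest class to 31.5% in the highest, and higher calls from 26.2% to 4.62%. On the log2(RPKM + 1) scale a gene near 1 RPKM has little room to fall.

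**Figure D3:**
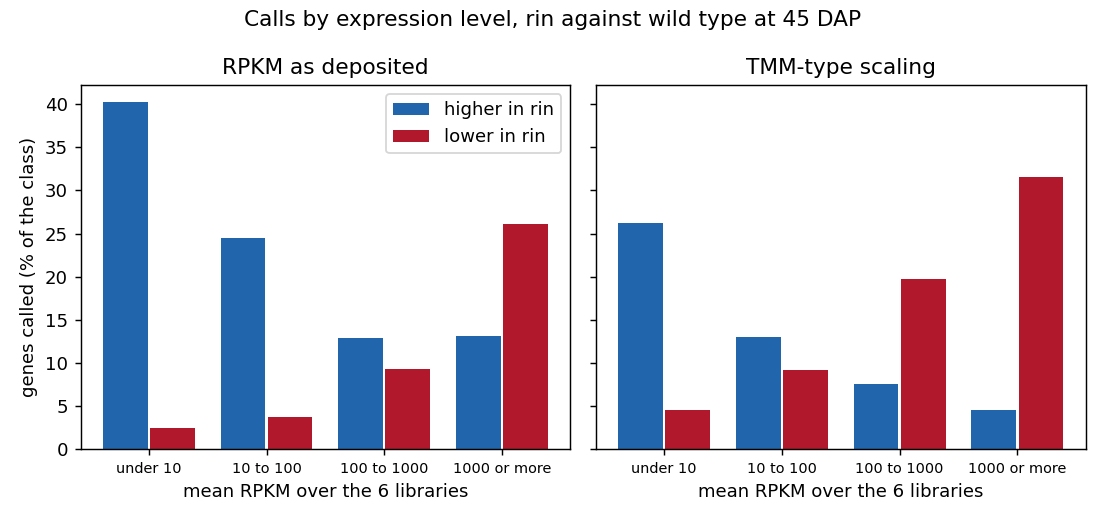
Bars give the percent of genes called higher or lower in rin at 45 DAP within 4 classes of mean RPKM, on the deposited scale (left) and with TMM-type scaling (right). The share of lower calls grows from class to class on both scales, reaching 26.2% and 31.5% at 1000 RPKM or more. Classes and differences come from the same libraries.

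The called genes were then followed at 35 DAP. The levels at that age do not enter the difference that was tested, but those libraries entered the shared estimate of the spread behind the calls. With only the 6 compared libraries in the fit, 604 genes were lower and 4006 higher at 45 DAP. The 696 genes lower in rin at 45 DAP had a median log2 difference between rin and wild type of -0.02 at 35 DAP, with quartiles of -0.24 and 0.19. The 5110 higher genes had a median of -0.09 at 35 DAP, with quartiles of -0.24 and 0.07, and all genes tested had -0.05. A difference of at least 2-fold in the same direction at 35 DAP, taken by size alone, was found for 16 of the 696 lower genes (2.30%) and for 45 of the 5110 higher genes (0.881%). Over all genes tested these shares were 0.783% and 0.892%.

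In level, the lower genes had a median of 10.3 RPKM in the wild type at 35 DAP and 10.2 RPKM in rin. At 45 DAP the medians were 63.1 RPKM in the wild type and 12.2 RPKM in rin. The higher genes had medians of 14.2 RPKM and 13.4 RPKM at 35 DAP in wild type and rin, and 3.33 RPKM and 13.7 RPKM at 45 DAP. For both sets the median of rin at 45 DAP thus lay near the medians of both genotypes at 35 DAP, and that of the wild type at 45 DAP lay apart. The values at 45 DAP chose the genes and are given as a description. The difference itself was also tested between the ages, as the difference at 45 DAP minus that at 35 DAP, and by limma 625 genes had a lower value in rin (3.6% of those tested) and 4678 had a higher value (26.9%).

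The same sets were weighed by their share of each library's summed RPKM. The 696 lower genes held 25.04% to 35.3% in the wild-type libraries of 45 DAP. They held 4.83% to 5.43% in rin at 45 DAP, 5.35% to 6.13% in the wild type at 35 DAP and 6.49% to 8.26% in rin at 35 DAP. The 5110 higher genes held 4.42% to 5.41% in the wild type at 45 DAP. They held 18.7% to 24.9% in rin at 45 DAP, within the range of 18.2% to 28.7% over the 6 libraries of 35 DAP. RPKM is relative to the reads of a library, so a large share held by some genes lowers the values of all others. How far this accounts for the calls was not tested. With TMM-type scaling 3061 genes were called higher in rin and 1505 lower, and with quantile normalization 1714 and 1472. The log2 differences of Solyc05g051850 and Solyc03g123830 were 7.04 and 6.08 with TMM-type scaling. With quantile normalization they were 6.98 and 5.46. In these bulk samples fewer cells of a type and less RNA per cell cannot be told apart.

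**Figure D4:**
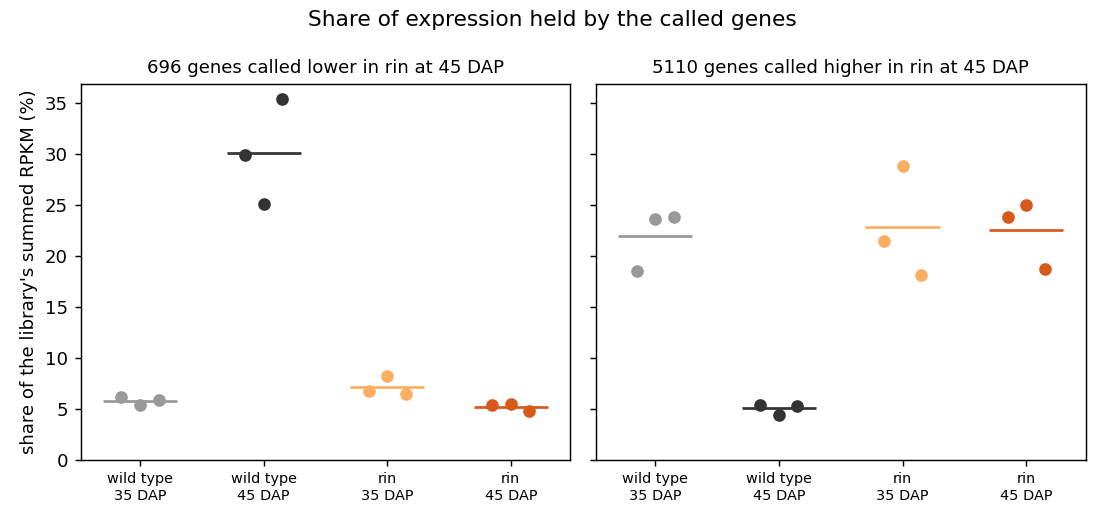
Percent of each library's summed RPKM held by the 696 genes called lower (left) and the 5110 called higher (right) in rin at 45 DAP, with each point a library and each bar the mean of 3. The wild type at 45 DAP is the group that stands apart, at 30.1% and 5.05% on average, and it is 1 of the 2 groups that chose the genes.

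The concentration of each transcriptome on its most abundant genes was also compared. In the wild type at 45 DAP the top 100 genes of a library held 37.4%, 36.6% and 46.3% of the summed RPKM. In rin they held 26.4%, 28.4% and 32.6%. The groups did not overlap, and the two-sided exact permutation p was 0.1, the smallest that 3 against 3 libraries can give. The 10 most abundant genes held 20.1%, 14.4% and 29.4% in the wild type and 12.3%, 12.8% and 14.2% in rin (exact p = 0.1), where the highest rin library and the lowest wild-type library nearly met. Genes at 1000 RPKM or more numbered 133 ± 34.2 (SD, n = 3) in the wild type and 116 ± 24.5 (SD, n = 3) in rin, where the groups overlapped (two-sided exact permutation p = 0.6).

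The number of genes detected followed the same split of the libraries. Genes at 1 RPKM or more numbered 15695, 14746 and 16041 in the wild type. In rin they numbered 17814, 18140 and 17696. The groups did not overlap (two-sided exact permutation p = 0.1). The rin libraries were deeper, and with the reads of all 6 libraries thinned to 5740880 the means were 15478 ± 652 (SD, n = 3) in the wild type and 17873 ± 233 (SD, n = 3) in rin, a difference of 2396 genes against 2389 before. Of all 35802 genes, tested or not, 862 reached 1 RPKM in all 3 rin libraries and lay under it in all 3 wild-type libraries. The reverse held for 88 genes. These counts are on the deposited scale, where the median log2 difference of the genes tested was 0.54.

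Length and chromosome were described without a test. The median coding length was 909 bases for the lower genes, 1245 bases for the higher genes and 1038 bases for all genes tested. The part of length in the calls was not tested. Chromosomes were read from the digits of the identifiers, which follow the tomato naming scheme. Lower calls ran from 2.69% of the genes tested on chromosome 5 to 5.27% on chromosome 2. Higher calls ran from 26.0% on chromosome 1 to 34.1% on chromosome 5. These ranges leave out the 119 genes whose digits name no chromosome, of which 42.9% were called higher and 5.04% lower.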

How the data were processed

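Illumina RNA sequencing libraries were made from total RNA of tomato fruits. The authors deposited RPKM values per gene and library, per the file headers and name. The submitters' processing notes name CASAVA 1.8.1 and Bowtie2 without saying what each did. Genome build, annotation, counting program and strand use were not given in the sources used here, so overlapping genes and near-identical copies may share reads. Whole reads and coding lengths were recovered from the RPKM steps (tolerance 0.02 reads, 28612 genes, 99.6% of lengths multiples of 3). In simulated data the recovery did not return all read totals exactly under 2 designs with randomly drawn genes. It did under a design drawn from the recovered rates and totals themselves, chosen after those failures, so read totals, read numbers, thinning and voom rest on a check that is not independent of the recovery. In 0 columns was the sample unclear.

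Tests used limma 3.58.1 (R 4.3.3) on log2(RPKM + 1), with a trend in variance, 6 group means over 18 libraries and two-sided p-values adjusted over 17379 genes. In simulated data for this comparison, 78% of 100 genes changed by 1.5 and 98% of 100 changed by 3 on the log2 scale were called, with 12 of 17179 unchanged genes. Changed genes were drawn from those above 3 on that scale in the wild type. The simulation held no shift of the bulk of genes and gave all libraries the same spread for a gene. It therefore does not cover errors from scaling or from a library that stands apart. Single values per library were compared by exact permutation (scipy 1.17.1). Alternatives covered pseudocount, filter, scaling, weights, a replicate block, left-out libraries and voom on the recovered reads.

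Members and lists were chosen with earlier results of these data known. A set of 15 functional lists with 144 gene names, RIN among those planned, was written from recalled locus numbers. The set was also fitted and its values were seen. It was dropped because no source at hand pairs identifiers with names and the planned check of coding lengths could not be made, so the planned shares per list are not reported. The genes named are the 2 largest falls and 2 largest rises among called genes whose groups do not overlap and which reach a mean of 10 RPKM in 1 group. The analyses of called sets, levels and single library values were chosen after the fits were seen.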

Additional observations from a re-analysis of the deposited data

Results flagged for a closer look

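The difference between rin and wild type was not the same at the 2 ages by limma's test of the difference at 45 DAP minus the difference at 35 DAP. Of 17379 genes tested, 4678 were called with a value higher in rin and 625 with one lower in rin. With TMM-type scaling these counts were 2405 and 1560. Among the genes named, the log2 value was -11.60 for Solyc10g080210 (SE 0.55, limma adjusted p = 3.88e-09) and -11.24 for Solyc08g066240 (SE 0.36, limma adjusted p = 3.1e-11). It was 6.38 for Solyc05g051850 (SE 0.51, limma adjusted p = 1.29e-06) and 5.98 for Solyc03g123830 (SE 0.53, limma adjusted p = 2.86e-06). The libraries of 45 DAP that chose these genes also enter this test.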

How the results depend on the processing

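The counts of called genes moved by over 1.5 times under scaling and under a large pseudocount. At 45 DAP, genes higher in rin numbered 3061 with TMM-type scaling, 1714 with quantile normalization and 2487 with a pseudocount of 5 RPKM, against 5110. Genes lower in rin numbered 1505 and 1472 under the 2 scalings, against 696. For the difference between ages, higher genes numbered 2405, 1280 and 2593 under these 3 settings, against 4678, and lower genes numbered 1560 and 1288 under the 2 scalings, against 625. The cause was not tested.

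Leaving out 1 library at a time gave 4027 to 5594 higher and 629 to 733 lower genes at 45 DAP, with 4027 and 733 without wild-type replicate 2. For the difference between ages it gave 3799 to 5185 and 528 to 673. The difference in genes detected at 1 RPKM ran from 2015 to 2663, and that in the share of the 100 top genes from -12.7 to -7.89 percentage points. The 4 named genes kept their direction and call in the 16 alternatives run at 45 DAP and in the 21 run for the difference between ages. Deviations from the group means of same-numbered libraries of the 2 genotypes at 45 DAP had correlations of 0.34, 0.16 and -0.19. Pairing by number is thus not shown, and 3 libraries per group are too few to exclude it. With a replicate block 5104 genes were higher and 693 lower at 45 DAP, and 4564 and 608 for the difference between ages. Thinning and the left-out libraries for single library values were chosen after seeing the data. The planned shares per gene list were not run, since the lists were dropped. At the depth of the shallowest library, 1 read of a gene of median length was worth 0.182 RPKM, which limits what can be seen near 1 RPKM.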
